A study of Mus musculus with 3 samples.

Results

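The costimulatory and checkpoint ligands of myeloid cells are the surface proteins through which dendritic cells and macrophages give T cells their second signal, or withhold it. The 9 genes were listed by symbol and looked up in the gene table of every library, and they are 9 of the 31053 genes measured. Cd80 and Cd86 encode B7-1 and B7-2, which bind CD28 and CTLA-4 on T cells. Cd274 and Pdcd1lg2 encode PD-L1 and PD-L2, the ligands of the inhibitory receptor PD-1. Cd40 encodes the receptor through which helper T cells license dendritic cells, and Cd83 encodes a surface marker of mature dendritic cells. Icosl, Tnfsf4 (OX40 ligand) and Tnfsf9 (4-1BB ligand) encode ligands of ICOS, OX40 and 4-1BB.

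The series holds 3 droplet libraries of mouse cells. Co-Mac was an untreated culture of C57/BL6 bone marrow cells grown with GM-CSF. VD-Mac was the same kind of culture given 1 µM of the active vitamin D3 hormone (VD3) on day 7 for 24 h. hSTSG was the digest of human split-thickness skin that had lain under the skin of C57/BL6 mice for 14 days, with 5 mice pooled. Active vitamin D acts through the vitamin D receptor, a nuclear receptor that drives Cyp24a1, the enzyme that degrades the hormone. Dendritic cells grown with it are usually described as tolerogenic, with little CD80, CD86 and CD40 and with PD-L1 kept or raised. PD-L2 is made by fewer cell types than PD-L1, chiefly by activated dendritic cells and macrophages.

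Levels (CPM) are UMIs, each a counted transcript, summed over the cells of a class and scaled to 1000000 gene UMIs. Each condition had 1 library, so no test was possible, and every interval printed covers counting error alone at 95%. A member was called when its levels differed at least 2-fold and the higher one reached 10 CPM, and it was measured when either library reached 10 CPM. Kept cells numbered 7257 in Co-Mac, 8825 in VD-Mac and 2144 in hSTSG, with medians of 15804, 12089 and 6637.5 UMIs per cell. Cell classes were rebuilt here from marker genes, with the 9 members left out of the clustering, and the authors' own cell names were not used here. The cultures are labelled as macrophages, yet the largest named class in each was mature dendritic cell (DC)-like, with 2585 of the Co-Mac cells (35.6%) and 2848 of the VD-Mac cells (32.3%). Macrophage-like cells made up 29.2% of Co-Mac (2122) and 20.9% of VD-Mac (1843), shares that depended on the settings: 14.7% and 13.1% with 30 components, 15.3% and 10.4% at resolution 0.3, 15.1% and 12.5% with all variable genes kept, and 14.2% and 13.7% without scaling within each library. A small class with cDC1 markers held 94 and 123 cells. No culture cluster took the name of a conventional immature DC, so that class has no value.

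The clusters split by library inside these classes. Mature DC-like cells lay in cluster 0 (45 Co-Mac and 2845 VD-Mac cells) and cluster 1 (2540 and 3). Macrophage-like cells lay in cluster 6 (999 and 42), cluster 7 (29 and 972) and cluster 3 (1094 and 829), whose leading genes were cell cycle genes such as Mki67. A cluster drawn almost wholly from 1 library may be that library and not a cell type, so the members are also given below inside cluster 3, where the libraries mix. That mixing depended on scaling within each library. Without it, clusters with Mki67 among their leading genes held 1559 Co-Mac and 5 VD-Mac cells, and 97 and 1079. The name of cluster 3 is not firm: it had 0 macrophage markers among its 10 leading genes, as did cluster 6, so most Co-Mac macrophage-like cells lay in clusters named by their score over the marker list with no leading marker. With resolution 0.3, 30 components or all variable genes kept, the cluster led by cell cycle genes was named neutrophil precursor-like, with 1643 and 1232 cells at resolution 0.3.

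The VD3 response itself was plain in the treated culture as a whole. Cyp24a1 had 1 UMI in Co-Mac macrophage-like cells and 25366 in VD-Mac ones, a log2 ratio of 15.25 (interval 12.77 to 20.55). Mature DC-like cells held 0 and 1002 Cyp24a1 UMIs, at least 329-fold apart. Vdr, the receptor gene, stood at 33.1 and 151 CPM in macrophage-like cells, a log2 ratio of 2.19 (2.12 to 2.26), while in mature DC-like cells its log2 ratio was 0.31 and it was not called. In cDC1-like cells Cyp24a1 had 0 and 248 UMIs, and Vdr stood at 18.8 and 95.2 CPM, a log2 ratio of 2.34 (1.76 to 2.97). VD-Mac levels of Cyp24a1 were 621 CPM in macrophage-like, 150 CPM in cDC1-like and 24.7 CPM in mature DC-like cells, the lowest of any class, beside 919 CPM in neutrophil precursor-like cells. Cyp24a1 made by the mature DC-like cells and stray transcript from the others cannot be told apart at that level.

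Between the cultures the members did not move together. Pdcd1lg2 fell in all 3 classes, Cd40 fell in mature DC-like and cDC1-like cells, Tnfsf4 fell in mature DC-like cells, and no member was called higher in these classes. In macrophage-like cells 1 of the 6 measured members was called, Pdcd1lg2, against 8.54% of 7841 genes (3.34% higher and 5.20% lower in VD-Mac). In mature DC-like cells 3 of the 8 measured members were called, Cd40, Pdcd1lg2 and Tnfsf4, against 4.71% of 6604 genes (2.09% higher and 2.62% lower). In cDC1-like cells 2 of the 7 measured members were called, Cd40 and Pdcd1lg2, against 15.2% of 7509 genes (6.98% higher and 8.22% lower). Over all kept cells 2 of the 7 measured members were called, again Cd40 and Pdcd1lg2, against 6.79% of 7732 genes (2.16% higher and 4.63% lower). The median log2 ratio of the measured members was 0.24 in macrophage-like, −0.41 in mature DC-like and 0.61 in cDC1-like cells, beside −0.09, 0.07 and −0.04 for all measured genes.

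**Figure D1:**
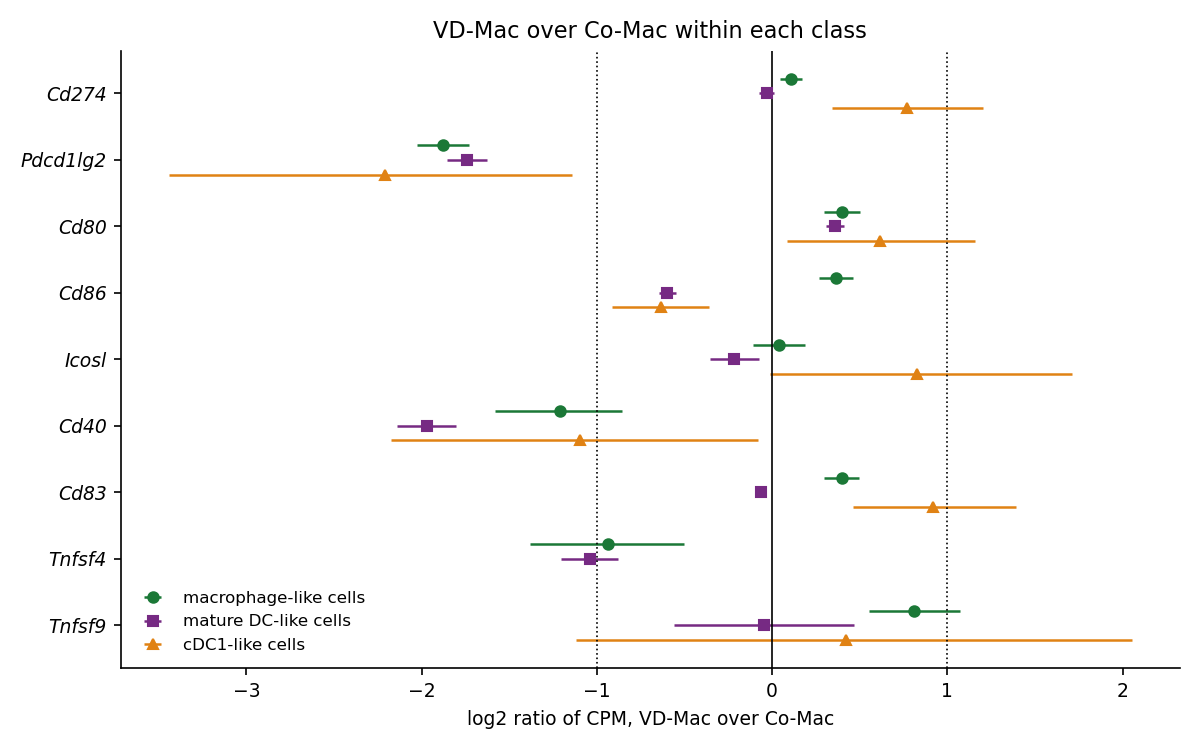
Log2 ratio of each member, VD-Mac over Co-Mac, within each rebuilt class. Bars are 95% counting intervals, and Tnfsf4 in cDC1-like cells is left out for having fewer than 10 UMIs.

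PD-L2 was the member called lower in all 3 classes. Pdcd1lg2 stood at 39.8 CPM (38.2 to 41.3) in Co-Mac macrophage-like cells and 10.8 CPM (9.84 to 11.9) in VD-Mac ones, 3.67-fold lower, a log2 ratio of −1.88 (−2.03 to −1.73), or −2.51 for cluster 7 against cluster 6. Mature DC-like cells went from 67.4 CPM (64.9 to 70.0) to 20.2 CPM (18.8 to 21.6), 3.34-fold lower. PD-L2 transcripts were therefore scarcer in the treated culture in the antigen-presenting classes alike. The cDC1-like cells held 39 and 9 Pdcd1lg2 UMIs, a log2 ratio of −2.21 (−3.44 to −1.14), which was −1.07 with 30 components and −4.04 under 5% mitochondrial UMIs. In cluster 3 the gene stood at 32.5 and 11.9 CPM, a log2 ratio of −1.45 (−1.64 to −1.26). Its ratio was below 0 in all 12 clusters that could be compared, from −2.50 to −1.09, and its interval lay below 0 in 11. The −1.09 came from cluster 13, with 8 and 4 UMIs (−3.27 to 0.81). Clusters 1 and 9, with 3 VD-Mac cells each, were not compared. Neutrophil-like cells gave 36.1 and 11.7 CPM, and neutrophil precursor-like cells, the background class for shares of cells, 12.6 and 4.80 CPM. The background itself was thus lower in VD-Mac, and stray transcript from other cells cannot be told apart from expression in these non-presenting classes.

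PD-L1 behaved differently from PD-L2. Cd274 stood at 80.6 and 86.9 CPM in the macrophage-like cells of Co-Mac and VD-Mac. Its log2 ratio there was 0.11 (0.05 to 0.17), or −0.28 under 5% mitochondrial UMIs. Its levels in mature DC-like cells were 206 CPM (202 to 211) and 202 CPM (197 to 206), a log2 ratio of −0.03 (−0.08 to 0.01). The PD-L1 transcript thus differed by less than 2-fold in the main antigen-presenting classes, in a direction that depended on the settings. In the small cDC1-like class it stood at 46.6 and 79.4 CPM, a log2 ratio of 0.77 (0.34 to 1.21), or 1.38 with 30 components. Neutrophil-like cells held 94.1 and 48.4 CPM of Cd274, so its ratio there, −0.96, lay on the other side of 0. Cd274 and Pdcd1lg2 are neighbours on chromosome 19, both on the + strand, with 22823 bases between them. The genes are adjacent, yet their ratios in macrophage-like cells lay at 0.11 and −1.88.

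The B7 genes were not called in macrophage-like, mature DC-like or cDC1-like cells. Cd80 was called higher in the small basophil or mast cell-like class, with 5 and 19 UMIs, a log2 ratio of 1.83 (0.37 to 3.61), and in B cell-like cells, with 2 and 6 UMIs, 1.31 (−1.18 to 4.65). Cd80 stood at 27.1 and 35.8 CPM in macrophage-like cells, a log2 ratio of 0.40 (0.30 to 0.50), or −0.000592 under 5% mitochondrial UMIs. Mature DC-like cells held Cd80 at 128 and 164 CPM, a log2 ratio of 0.36 (0.31 to 0.41), so B7-1 was slightly above the control level in each of these, though in macrophage-like cells not under that stricter filter. Cd86 stood at 29.8 and 38.4 CPM in macrophage-like cells, a log2 ratio of 0.37 (0.27 to 0.46). Mature DC-like cells held Cd86 at 217 and 143 CPM, a log2 ratio of −0.60 (−0.65 to −0.55), and in cDC1-like cells at 171 and 110 CPM, a log2 ratio of −0.64 (−0.92 to −0.36). B7-2 was therefore below control in the DC classes and above it in macrophage-like cells, each time short of 2-fold over the class. Inside the macrophage-like clusters drawn mostly from a single library, some ratios passed 2-fold. In cluster 6 (999 and 42 cells) Cd86 stood at 18.3 and 55.8 CPM, a log2 ratio of 1.61 (1.10 to 2.08). In cluster 7 (29 and 972 cells) Cd80 held 3 and 489 UMIs, a log2 ratio of 2.40 (0.84 to 4.68). Cd80 in cluster 6 (0.86) and Cd86 in cluster 7 (0.12) were not called.

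Weighed against B7, the PD-1 ligands summed were lower in the treated macrophage-like and mature DC-like cells. Of the ligands Pdcd1lg2 fell, while Cd274 alone gave log2 ratios of 0.11 and −0.03. In macrophage-like cells Cd80 (0.40) and Cd86 (0.37) were also higher, which enters the ratio. In macrophage-like cells Cd274 and Pdcd1lg2 together held 7537 UMIs against 3567 for Cd80 and Cd86 in Co-Mac, a ratio of 2.11, and 3993 against 3031 in VD-Mac, a ratio of 1.32. The log2 change of that ratio was −0.68 (−0.77 to −0.59), so the balance tilted toward B7. The ratio in mature DC-like cells was 0.793 and 0.722, a log2 change of −0.14 (−0.19 to −0.08). In cDC1-like cells it was 0.354 and 0.534, a log2 change of 0.60 (0.15 to 1.04), or 1.53 with 30 components and 1.23 without scaling within each library, so this small class tilted the other way. The largest changes lay outside the antigen-presenting classes, at −1.41 (−1.78 to −1.05) in neutrophil-like cells and −1.19 (−1.67 to −0.71) in neutrophil precursor-like cells, the background class, so the tilt was not particular to presenting cells. UMI counting at the 3′ end needs no scaling for transcript length when genes are summed or compared.

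CD40, the receptor for helper T cell signals, was the other large loss, and in mature DC-like cells the larger. Cd40 in mature DC-like cells fell from 34.8 CPM (33.0 to 36.7) to 8.88 CPM (7.98 to 9.84), 3.92-fold, a log2 ratio of −1.97 (−2.14 to −1.80). In cDC1-like cells it held 26 and 13 UMIs, a log2 ratio of −1.09 (−2.18 to −0.08), and it passed 2-fold in 7 of 12 alternatives. Macrophage-like cells carried little of it, 4.71 and 2.03 CPM, under the level needed for a call, with a log2 ratio of −1.21 (−1.58 to −0.86), or −3.06 under 5% mitochondrial UMIs. Low CD40 is part of the tolerogenic description, and its transcript was lower in each of these classes. Low CD80 and CD86 are part of it too, and their transcripts did not all follow. Cd80 went the other way, at log2 0.40 in macrophage-like, 0.36 in mature DC-like and 0.61 in cDC1-like cells. In macrophage-like cells that was not so under 5% mitochondrial UMIs. Cd86 was lower in mature DC-like (−0.60) and cDC1-like cells (−0.64) and higher in macrophage-like cells (0.37). In the small B cell-like class Cd40 held 9 and 1 UMIs and Cd83 held 73 and 22, both called lower. In macrophage-like, mature DC-like and cDC1-like cells Cd83 did not share that course. Its levels in mature DC-like cells were 473 and 452 CPM, a log2 ratio of −0.07 (−0.10 to −0.04). In macrophage-like cells Cd83 stood at 28.2 and 37.1 CPM, a log2 ratio of 0.40 (0.30 to 0.50), which turned to −1.64 with each culture clustered on its own and −0.53 under 5% mitochondrial UMIs. In cDC1-like cells it stood at 38.8 and 73.4 CPM, a log2 ratio of 0.92 (0.46 to 1.39), or 0.15 without the top Scrublet (doublet) scores. The maturation marker was thus kept in the treated mature DC-like cells that had lost Cd40, although Cd83 was among the 10 leading genes of clusters 0 and 1 and so helps describe them.

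Among the remaining costimulatory ligands, OX40 ligand was the member called. Tnfsf4 fell in mature DC-like cells from 23.7 CPM (22.2 to 25.2) to 11.5 CPM (10.5 to 12.6), 2.06-fold, a log2 ratio of −1.04 (−1.20 to −0.88). This call sat at the threshold, and clustering each culture on its own gave −0.94 and ended it. Macrophage-like cells held 2.81 and 1.47 CPM of Tnfsf4, too little for a call, with a log2 ratio of −0.94, or −2.27 with each culture clustered on its own. Icosl stood at 15.0 and 15.4 CPM in macrophage-like cells and at 22.4 and 19.3 CPM in mature DC-like cells, log2 ratios of 0.04 (−0.11 to 0.18) and −0.22 (−0.36 to −0.08). In cDC1-like cells it stood at 12.3 and 21.8 CPM, a log2 ratio of 0.83 (−0.01 to 1.71), or 1.51 under 5% mitochondrial UMIs, and in unnamed cells its log2 ratio was 0.61 (0.27 to 0.95). ICOS ligand was thus nearly level between the cultures in macrophage-like and mature DC-like cells. Tnfsf9 was low in every culture class, at 3.75 and 6.59 CPM in macrophage-like cells and 1.68 and 1.63 CPM in mature DC-like cells, under the level needed for a call. Its log2 ratio in macrophage-like cells was 0.81 (0.55 to 1.07), or 1.55 for cluster 7 against cluster 6.

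Inside cluster 3, where the libraries mix, Pdcd1lg2 was again the member called. Its log2 ratio of −1.45 stood beside 0.11 for Cd274, 0.39 for Cd80 and 0.18 for Cd86. Cd40 gave −1.20 there, from 5.89 and 2.57 CPM, and Cd83 gave 0.49. The ratio was −0.03 for Icosl, −0.82 for Tnfsf4 and 0.46 for Tnfsf9. These cells are a large part of the macrophage-like class (1094 of 2122 and 829 of 1843), so their values are not independent of the class values.

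Over all kept cells the class make-up enters as well, since unnamed cells made up 12.6% of Co-Mac and 27.1% of VD-Mac. Pdcd1lg2 stood at 49.3 and 18.6 CPM, a log2 ratio of −1.41 (−1.48 to −1.34). Cd40 stood at 14.6 and 5.16 CPM, a log2 ratio of −1.50 (−1.64 to −1.37). Cd80 stood at 58.0 and 91.7 CPM, a log2 ratio of 0.66, and Cd274 at 120 and 142 CPM, a log2 ratio of 0.25. The whole culture therefore gave the same pair of lower genes as the cDC1-like class. Unnamed cluster 5 (282 and 770 cells, led by Syt7 and Wfdc17) carried the PD-1 ligands at high levels, with Cd274 at 196 and 235 CPM and Pdcd1lg2 at 111 and 42.2 CPM.

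Markers moved with these comparisons. In macrophage-like cells the summed macrophage markers stood at 1971 CPM in Co-Mac and 2899 CPM in VD-Mac, the summed DC markers, mostly Plet1, at 1303 and 191 CPM, and the monocyte markers at 1276 and 792 CPM. For mature DC-like cells the summed mature DC markers stood at 7878 and 5993 CPM, the cDC1 markers, mostly Irf8, at 289 and 546 CPM, and the DC markers at 356 and 169 CPM. In cDC1-like cells the cDC1 markers stood at 1785 and 894 CPM, the DC markers at 2368 and 892 CPM, the monocyte markers at 232 and 54.0 CPM and the neutrophil markers at 166 and 892 CPM. A shift of cell state or mixture inside a class and a change within each cell cannot be told apart here.

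Shares of positive cells followed the levels for Pdcd1lg2. With every cell thinned to 2000 UMIs, 7.16% of Co-Mac macrophage-like cells and 1.90% of VD-Mac ones held a Pdcd1lg2 UMI (48.3% and 16.8% unthinned). For mature DC-like cells the thinned shares were 11.3% and 3.21% (48.6% and 21.0% unthinned). The background class, neutrophil precursor-like cells, gave 3.12% and 1.84% thinned (20.5% and 7.72% unthinned). The thinned shares of treated macrophage-like and mature DC-like cells were thus not separated from background. Their levels, 10.8 and 20.2 CPM, lay above the 4.80 CPM (3.04 to 7.20) of the background class. Cd40 was held by 6.72% and 1.87% of mature DC-like cells thinned (36.4% and 10.6% unthinned), with a thinned background of 0.55% and 0%. Cd274 was held by 32.9% and 32.7% of mature DC-like cells thinned (88.4% and 86.1% unthinned), with a thinned background of 6.24% and 2.57%. Median depths in Co-Mac and VD-Mac were 23640 and 18553 UMIs for macrophage-like, 14389 and 13173.5 for mature DC-like and 21807.5 and 16088.5 for precursor-like cells. Cells below 2000 UMIs were left out: 0 and 4 macrophage-like, 10 and 10 mature DC-like, and 1 and 0 precursor-like. Thinned shares thus fell with the levels for Pdcd1lg2 and Cd40, while Cd274-positive mature DC-like cells kept their share. At 2000 UMIs a low gene's share follows largely from its level, so fewer positive cells and lower levels cannot be told apart.

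In mature DC-like cells of the cultures the PD-1 ligands shared cells about as often as separate draws would give. Cd274 and Pdcd1lg2 were found together in mature DC-like cells, in 3.88% of Co-Mac cells and 1.02% of VD-Mac cells, thinned, beside products of the separate shares of 3.73% and 1.05%. Cells positive for both PD-1 ligands were thus rarer in VD-Mac in step with Pdcd1lg2. Macrophage-like cells gave 1.46% (0.995 to 2.07) beside a product of 1.04% in Co-Mac, and 1 cell, 0.0544% (0.00138 to 0.303), beside 0.276% in VD-Mac. Over all kept Co-Mac cells the share was 2.15% (1.82 to 2.53) beside a product of 1.67%, in a mixture of classes. Cd80 and Cd86 were found together in mature DC-like cells, in 7.34% and 6.41%, beside products of 6.24% and 6.44%.

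The graft gives a level for the same genes in tissue. It is not a control for the cultures, because cell source, time and handling all differ. Its macrophage-like cells numbered 618, in cluster 2 (314, led by Cd163 and Ccl8) and cluster 3 (304, led by Gpnmb and Mmp12), beside 368 monocyte-like, 81 mature DC-like and 516 neutrophil-like cells. Monocyte-like cells also carried red cell transcripts, 5890 CPM summed, led by Hbb-bs.

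Graft antigen-presenting cells were rich in PD-L2 and CD40 transcripts. The graft mature DC-like class depended on the settings: 81 cells became 40 with 30 components and 149 with all variable genes kept, and no cluster took the name at resolution 0.3 or with 300 UMIs in place of 300 genes. Pdcd1lg2 stood at 126 CPM (119 to 133) in graft macrophage-like cells, 218 CPM (191 to 248) in mature DC-like cells and 116 CPM (105 to 129) in monocyte-like cells. The macrophage-like and mature DC-like PD-L2 levels lay above those of the same classes in either culture. Cd40 stood at 29.2 CPM (25.9 to 32.8) in macrophage-like and 211 CPM (185 to 241) in mature DC-like cells, also above either culture. Within the graft, Pdcd1lg2 was uneven, with 215 CPM in the Cd163 cluster and 69.3 CPM in the Gpnmb cluster. Cd274 stood at 99.2 CPM (93.0 to 106) in macrophage-like cells, 300 CPM (267 to 335) in mature DC-like cells and 141 CPM in monocyte-like cells. Its highest graft level was in neutrophil-like cells, 428 CPM (395 to 463), so PD-L1 transcripts were not confined to the antigen-presenting classes.

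**Figure D2:**
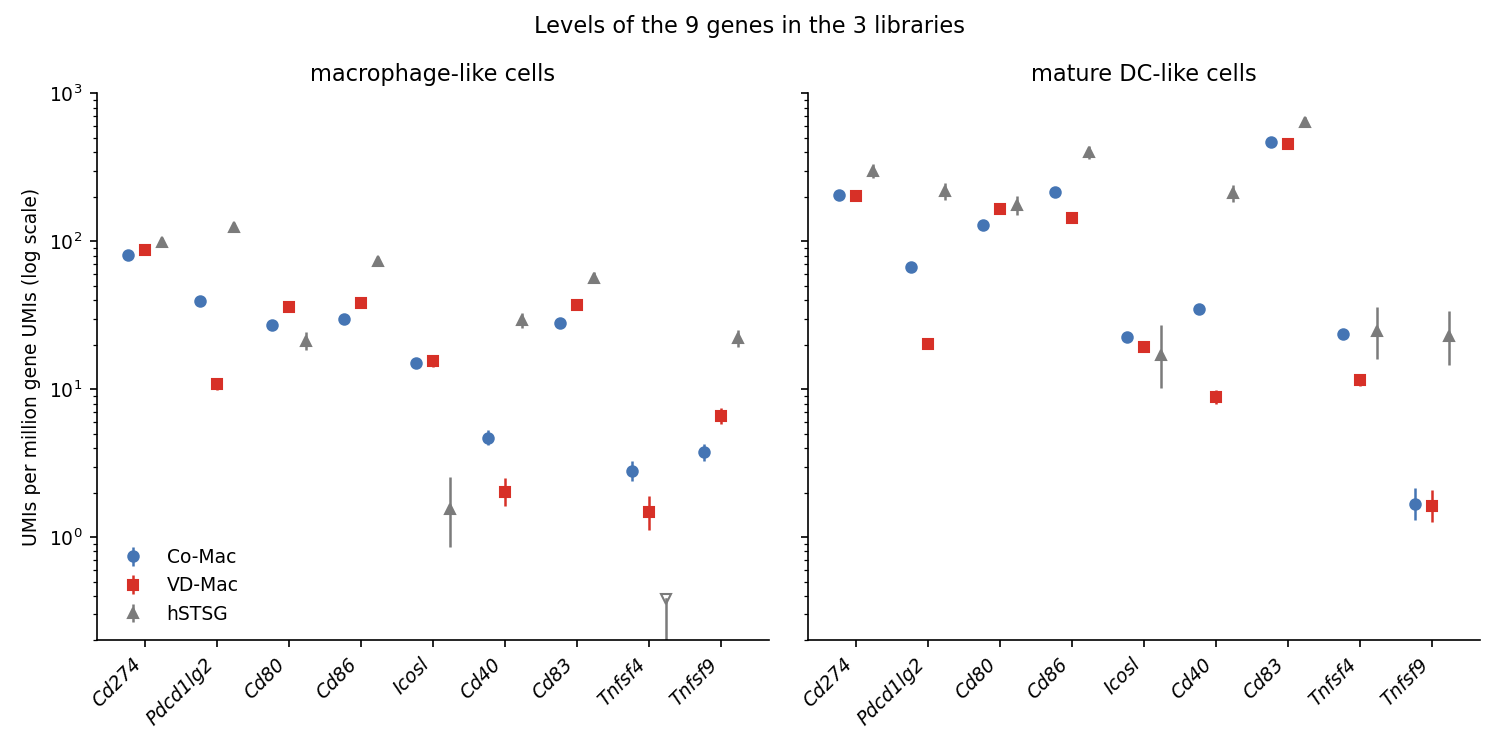
Levels of the 9 genes in macrophage-like and mature DC-like cells of the 3 libraries, with exact 95% Poisson intervals. An open triangle is an upper limit for a gene with 0 UMIs.

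Costimulatory members in the graft differed by class. Cd86 stood at 73.3 CPM in macrophage-like, 272 CPM in monocyte-like and 399 CPM (362 to 439) in mature DC-like cells. Cd80 stood at 21.2, 52.8 and 175 CPM in the same classes. Cd83 stood at 56.7, 208 and 645 CPM. Each of these genes thus had the same class order, from macrophage-like through monocyte-like to mature DC-like, with intervals that did not overlap. Tnfsf9 stood at 22.1 CPM (19.2 to 25.2) in graft macrophage-like cells, 36.3 CPM (30.0 to 43.4) in monocyte-like cells and 22.8 CPM (14.6 to 33.9) in mature DC-like cells. The 4-1BB ligand was thus a graft gene more than a culture gene, and its macrophage-like and mature DC-like levels were not separated by their intervals. Icosl went the other way in macrophage-like cells, at 1.54 CPM (0.862 to 2.54) in the graft. Tnfsf4 had 0 UMIs in graft macrophage-like cells, an upper limit of 0.379 CPM, and 24.7 CPM (16.1 to 36.1) in mature DC-like cells, so the OX40 ligand transcript lay in mature DC-like and not in macrophage-like cells of the graft.

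The PD-1 ligand to B7 ratio in the graft was 2.38 in macrophage-like cells (2190 UMIs against 920), 0.901 in mature DC-like cells and 0.793 in monocyte-like cells. Graft macrophage-like cells thus held a larger relative load of PD-1 ligands than the mature DC-like and monocyte-like cells. Graft T cell-like (6.03), neutrophil-like (4.82) and fibroblast-like cells (3.04) had larger ratios still, and plasma cell-like cells a smaller one (1.01). Culture macrophage-like cells gave 2.11 in Co-Mac and 1.32 in VD-Mac. Co-Mac cells of cluster 6 gave 3.78 and VD-Mac cells of cluster 7 gave 1.66. Which culture lay nearer the graft thus depended on the clusters used. Thinned to 2000 UMIs, 22.5% of graft macrophage-like and 28.4% of mature DC-like cells held Pdcd1lg2 (48.4% and 63.0% unthinned), beside 1.42% of fibroblast-like cells (3.52% unthinned). Median depths were 12920, 13812 and 25375 UMIs, and 41, 7 and 1 cells below 2000 UMIs were left out. Cd274 and Pdcd1lg2 met in 9 of 74 graft mature DC-like cells, 12.2% (5.71 to 21.8), an interval that holds the product of 8.82%. Transcripts of the partners of these ligands were found in graft T cell-like cells (301), where Pdcd1 stood at 186 CPM, Icos at 1026 CPM and Tnfrsf9 at 581 CPM.

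**Figure D3:**
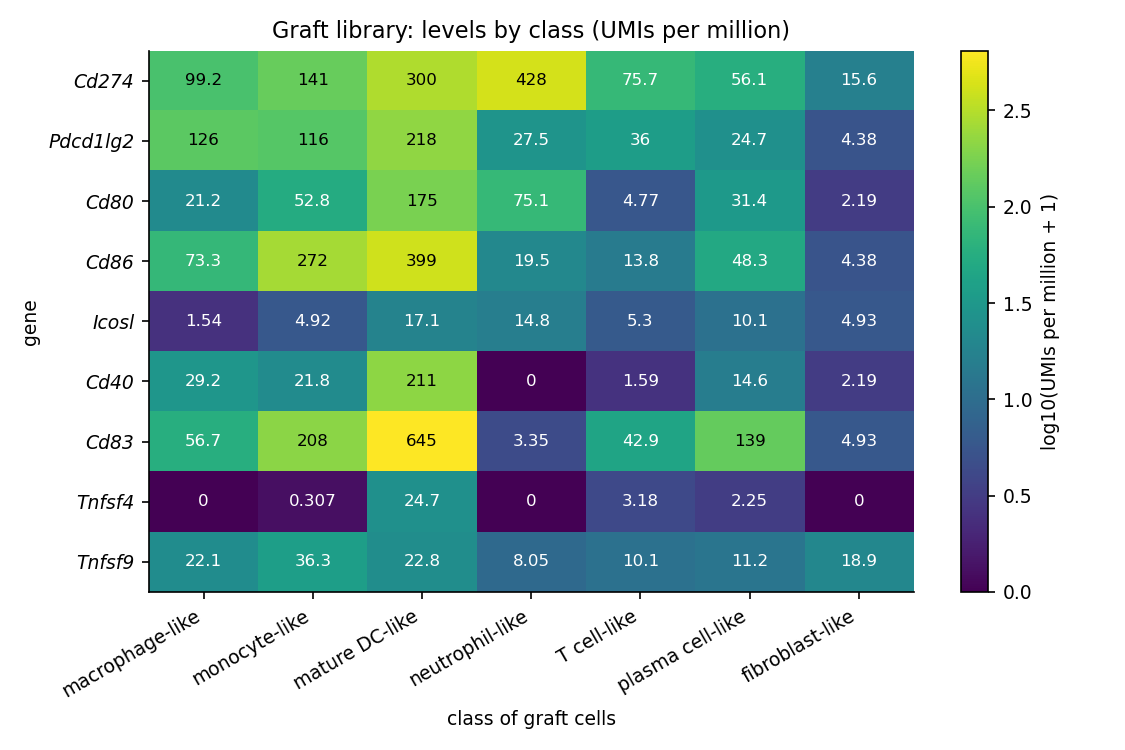
Levels of the 9 genes across the rebuilt cell classes of the graft.

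Genes around the members moved in parts, and the list counts stand beside 8.54% of all genes called in macrophage-like, 4.71% in mature DC-like and 15.2% in cDC1-like cells. Of 14 measured NF-kB and CD40 signalling genes, 1 rose and 1 fell in macrophage-like cells: Nfkbia, the NF-kB inhibitor, stood at 231 and 490 CPM (log2 1.08), and Nfkbie at 50.3 and 21.2 CPM (log2 −1.25). None of the 14 were called in mature DC-like cells, beside 4.71% of all genes, a count that does not set the list apart. In cDC1-like cells 3 of 14 rose and 0 fell, with log2 ratios of 1.99 for Nfkbia, 1.16 for Rel and 1.10 for Map3k14, beside 15.2% of all genes called there. Of 8 interferon axis genes, which include the drivers of Cd274, 2 rose in macrophage-like cells, Ifngr1 (65.9 and 161 CPM, log2 1.29) and Irf1 (12.3 and 27.5 CPM, log2 1.17). In mature DC-like cells 1 of 8 rose, Ifngr1 (16.8 and 40.8 CPM, log2 1.28). In cDC1-like cells 2 of 8 rose, Irf1 (log2 1.65) and Ifngr1 (log2 1.33). The interferon receptor gene was thus higher in the treated cells of each class, while Cd274 itself was not called.

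Antigen presentation and maturation genes gave more calls lower than higher, as all genes did (5.20% lower and 3.34% higher in macrophage-like, 2.62% and 2.09% in mature DC-like, 8.22% and 6.98% in cDC1-like cells). In macrophage-like cells 4 of 14 fell and 1 rose: Ccl17, a chemokine of maturing DCs, went from 4187 to 1364 CPM (log2 −1.62), and H2-DMb1, which loads peptide on MHC class II, from 357 to 127 CPM (log2 −1.49). Ciita (log2 −1.57) and H2-DMb2 (log2 −1.45) also fell, and Il15 rose (4.60 to 12.4 CPM, log2 1.43). Ciita and H2-DMb2 also served as class markers. Of 14 in mature DC-like cells 2 fell, Ccl17 (log2 −1.65) and Ccl22 (log2 −1.20, also a class marker), and 0 rose. In cDC1-like cells 3 of 13 fell and 2 rose: Ciita (log2 −2.13), H2-DMb2 (log2 −1.73) and H2-DMb1 (log2 −1.03) fell, and Ccr7 (log2 1.36, also a class marker) and Tnf (log2 1.09) rose. The class II regulator Ciita, H2-DMb1 and H2-DMb2 thus fell in macrophage-like and cDC1-like cells. H2-Aa, a class II gene itself, was not called there, with log2 ratios of −0.50 and −0.65.

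Genes usually tied to tolerogenic DCs are counted here beside all genes. Of all genes, 3.34%, 2.09% and 6.98% were called higher in macrophage-like, mature DC-like and cDC1-like cells. The shares called lower were 5.20%, 2.62% and 8.22%, in the same order. In macrophage-like cells 5 of 14 fell and 0 rose, among them Il1rn (93.8 to 17.9 CPM, log2 −2.39), Aldh1a2 (log2 −2.13, also a class marker), Anxa1 (log2 −1.41) and Lilrb4a (log2 −1.36). In mature DC-like cells 1 of 7 fell, Aldh1a2 (163 to 29.1 CPM, log2 −2.49), and 1 rose, Il1rn (7.49 to 16 CPM, log2 1.09). In cDC1-like cells 6 of 14 fell and 0 rose, among them Il1rn (41 and 3 UMIs, log2 −3.87), Thbs1 (log2 −1.57), Anxa1 (log2 −1.35) and Cd14 (log2 −1.04, also a class marker). Il10 had 2 and 0 UMIs in macrophage-like cells and 7 and 7 in mature DC-like cells, and Ido1 had 10 and 3, then 13 and 8. Il10 and Ido1 were therefore too sparse to compare beside the surface members.

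Other ligands and counter-receptors were mostly too low to be measured in these cells. Of 6 measured other ligands in macrophage-like cells 2 fell, Tnfsf8, the CD30 ligand (17.6 to 4.11 CPM, log2 −2.10), and Nectin2 (15.0 to 6.93 CPM, log2 −1.12), beside 8.54% of all genes called. In mature DC-like cells 1 of 6 fell, Cd48 (205 to 72.1 CPM, log2 −1.51), beside 4.71% of all genes. In cDC1-like cells 1 of 7 rose, Vsir (log2 1.32), and 2 fell, Pvr (log2 −2.42) and Tnfsf8 (log2 −1.50), beside 15.2% of all genes. Of 2 measured counter-receptors in macrophage-like cells 1 rose, Cd28, the receptor of Cd80 and Cd86, from 0.463 to 17.2 CPM (log2 5.22, interval 4.68 to 5.81). In mature DC-like cells 2 of 4 fell, Tnfrsf4, the OX40 gene (22.1 to 6.58 CPM, log2 −1.75), and Icos (11.4 to 4.61 CPM, log2 −1.31), and in cDC1-like cells 0 of 1 was called. Tnfrsf4 and its ligand gene Tnfsf4 were thus lower in the same treated class. Over all kept cells 1 of 8 other ligands, 3 of 15 presentation genes and 4 of 13 tolerogenic genes fell, led by Tnfsf8 (log2 −2.28), H2-DMb1 (log2 −1.43) and Il1rn (log2 −1.66), and 1 presentation gene, Il15 (log2 1.06), and 1 of 8 interferon axis genes, Ifngr1 (log2 1.04), rose, beside 6.79% of all genes called.

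Each member was also matched with the genes whose levels ran most like its own over 17 class and library points, among 6256 candidate genes. Cd86 ran with class II genes, H2-Eb1 (r = 0.94), H2-Aa (0.92) and Cd74 (0.92). Pdcd1lg2 ran with Malt1 (0.92), a signalling protease of the NF-kB pathway, and Rassf3 (0.90), whereas Cd274 ran with Uvrag (0.89) and Ankrd33b (0.88). The nearest genes of the PD-1 ligands were thus different genes, and the ligands matched each other at 0.695. Cd83 ran with Stxbp3 (0.95) and Etv3 (0.92), Cd80 with Ogfrl1 (0.87), and Cd40 with Rap2a (0.89). Tnfsf4 ran with Slc4a8 (0.95) and with Ccr7 (0.90), a class marker of mature DCs, and Tnfsf9 with B4galt5 (0.93). Icosl had no match above Mapk13 (0.79). Between members the closest pair was Cd86 and Cd83 (0.887), followed by Cd86 and Cd40 (0.868).

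Promoters of 300 bases were available for 4 members, Cd80, Cd274, Pdcd1lg2 and Icosl, and not for Cd86, Cd40, Cd83, Tnfsf4 and Tnfsf9. They were searched on each strand for kappa B sites (GGGACTTTC, GGGAATTTC, GGAAATTCC, GGGACTTCC or GGGGCTTTC), for the STAT site TTCNNNGAA, and for vitamin D receptor repeats (pairs 3 bases apart of the site AGGTCA or its variants AGTTCA or else GGTTCA or also GGGTCA). None of the 4 held any of these exact sites, which 2.06%, 8.30% and 0.0396% of all 32851 promoters held. The kappa B list was short, and looser kappa B forms were not searched, so the absence covers the listed sites alone. The vitamin D receptor repeat was too rare among promoters for its absence near Pdcd1lg2 to separate that gene from others. The promoters of the neighbouring PD-1 ligand genes are given from RefSeq on GRCm38.p6, + strand, at chr19:29367188-29367487 for Cd274 and chr19:29410669-29410968 for Pdcd1lg2.

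Cd274: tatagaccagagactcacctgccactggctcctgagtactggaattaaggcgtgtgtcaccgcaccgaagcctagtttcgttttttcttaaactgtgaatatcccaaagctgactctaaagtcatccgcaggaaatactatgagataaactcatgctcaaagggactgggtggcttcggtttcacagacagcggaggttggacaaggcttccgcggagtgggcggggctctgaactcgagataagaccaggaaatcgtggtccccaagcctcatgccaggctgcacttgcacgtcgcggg

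Pdcd1lg2: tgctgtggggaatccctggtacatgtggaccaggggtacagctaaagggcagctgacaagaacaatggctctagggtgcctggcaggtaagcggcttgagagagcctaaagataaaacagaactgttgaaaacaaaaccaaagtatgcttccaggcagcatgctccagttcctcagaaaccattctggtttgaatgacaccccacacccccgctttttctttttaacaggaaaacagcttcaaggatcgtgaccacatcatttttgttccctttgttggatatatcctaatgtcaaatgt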

How the data were processed

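The authors' deposited matrices hold the raw UMI count of each gene in each barcode, made with Cell Ranger (3.1.0 per the file headers). The labels list Seurat 3.1.1 and name mm9, the methods text names GRCh38, and the gene IDs are mouse. Barcodes with 300 genes, under 100000 gene UMIs and under 10% mitochondrial UMIs were kept. Gene totals before filtering were 136905324, 124731240 and 24472168 UMIs. Kept barcodes shared between libraries numbered 15, 3 and 6 per pair. Cultures were clustered together, scaled within each library (chosen after clusters were seen), and the graft alone, with Seurat 5.3.0 in R 4.3.3 (Matrix 1.6.5; 2000 variable genes, 15 components, 15 neighbours, resolution 0.5, seed 1). This gave 14 and 13 clusters, 11 and 12 of them named by marker lists. Scrublet in scanpy 1.11.5 called 1, 0 and 8 doublets, 0.04938% of 18226 cells, so its automatic threshold had not worked and doublets were kept. Levels, exact Poisson, binomial and conditional binomial intervals used Python 3.11.15, numpy 2.4.6, scipy 1.17.1 and pandas 2.3.3, figures matplotlib 3.10.9. Gene positions came from GENCODE vM21, which held 99.6% of the gene IDs. Members and lists were chosen with earlier results of these data known. The cDC1-like class was added after seeing the data.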

Additional observations from a re-analysis of the deposited data

Results flagged for a closer look

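Cd86 stood on opposite sides of 0 in the culture classes, with a log2 ratio of 0.37 in macrophage-like cells and −0.60 in mature DC-like cells. Cd83 did so too, with 0.40 in macrophage-like cells and −0.0657 in mature DC-like cells. Each came to notice because the classes moved in opposite directions with intervals clear of 0, and the difference between the classes was not tested. The Cd86 directions held in 10 of 10 alternatives for macrophage-like cells and 13 of 13 for mature DC-like cells. The Cd83 direction in macrophage-like cells held in 7 of 10 and turned to −1.64 with each culture clustered on its own. It also turned below 0 under the stricter mitochondrial filter, so the opposite direction of Cd83 depends on the settings.

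The graft library also holds 1195935 UMIs of hashtag antibodies, a signal outside the gene counts, in 2643 of its 2644 barcodes. Its table lists 20 hashtags, and 4 of them carried 99.9% of those UMIs, while the culture tables list 10 with 0 UMIs. The labels do not say what the tags mark, so the graft levels of the members were not divided by tag.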

How the results depend on the processing

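No paired analysis was possible because each condition had 1 library. No direction of the PD-1 ligand to B7 ratio reversed. Pdcd1lg2 stayed past 2-fold in every alternative: log2 −2.51 to −1.45 in macrophage-like, −1.79 to −1.36 in mature DC-like and −4.04 to −1.07 in cDC1-like cells. Cd40 did so in mature DC-like cells (−1.78 at the least) and in 7 of 12 alternatives in cDC1-like cells. Tnfsf4 did so in 11 of 13 in mature DC-like cells (−0.94 with each culture on its own). Cd274 kept its direction in 9 of 10 alternatives in macrophage-like and 9 of 13 in mature DC-like cells, and in 4 of 7 over all kept cells (−0.06 for mean CPM). Added alternatives were chosen after seeing the data, and DC-like cells gave no value. Cd40, Tnfsf4 and Tnfsf9 in macrophage-like cells lay under the 10 CPM minimum in both cultures and so could not be called. Transcripts, not surface proteins, were measured.

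The log2 change of the ratio moved as follows, and the cause was not tested. Macrophage-like cells: −1.19 for cluster 7 against cluster 6, −0.50 in cluster 3, −0.98 without scaling within each library, −0.38 with each culture on its own, −0.84 for mean CPM, −0.85 without the top Scrublet scores (421 and 623 cells removed), −0.78 under 5% mitochondrial UMIs. Mature DC-like cells: −0.0543 with 30 components, −0.0377 on its own, −0.0574 at resolution 0.3, −0.0578 at 0.8, −0.22 under 5%. cDC1-like cells: 1.53 with 30 components, 1.23 without scaling, 1.06 on its own. All kept cells: −0.43 under 5%.

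The number of called members moved to 0 in macrophage-like, cDC1-like and all kept cells and 1 in mature DC-like cells with a 50 CPM minimum, which leaves fewer genes measured. It was 2 in macrophage-like cells with no minimum and with each culture on its own. In cDC1-like cells it was 4 with each culture on its own, 1 at resolution 0.3 and 1 without the top Scrublet scores. Macrophage-like cells were found but not compared, and so not run, with 300 UMIs in place of 300 genes, resolution 0.3, 30 components or all variable genes kept, because a cluster of the class then had more markers of another list than of its own among its 10 leading genes.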
